A study of Arabidopsis thaliana with 28 samples.

Results

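The levels of 5 transcripts of flavonoid synthesis and sugar attachment in Arabidopsis thaliana were followed over time after a single UV-B exposure. The genes were CHIL (AT5G05270), DFR (AT5G42800), UGT78D1 (AT1G30530), UGT78D2 (AT5G17050) and the locus AT2G22590, which the annotation used here does not name. Each was represented by 1 probe set that the annotation matched to that gene alone, so they account for 5 of 22746 probe sets on the array. All 28 arrays carried RNA of Col-0 plants that had been grown on Murashige and Skoog medium and exposed at 16 days of age to 15 min of UV-B (1.18 W/m2) when 3 h of a 16 h day had passed. Shoots and roots were collected at 0.25, 0.5, 1, 3, 6, 12 and 24 h, with 2 arrays in each of the 14 combinations of tissue and time. No array of untreated plants was analysed here, so 0.25 h served as the reference, and changes complete by then do not show. Up to 12 h the hour of the day moved with the labelled time, and their effects cannot be told apart. By the labels, 24 h falls close to the hour of 0.25 h, a day later.

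Flavonoids are phenolic compounds that plants build from phenylalanine by way of chalcones, and flavonols and anthocyanins absorb ultraviolet light in plant tissue. UV-B is perceived by the photoreceptor UVR8, which acts through the transcription factors HY5 and HYH on many genes of the pathway. Before storage in the vacuole the pigments receive sugars, which family 1 glycosyltransferases (UGTs) attach. CHIL is a non-catalytic relative of chalcone isomerase that promotes the chalcone synthase step at the entry of the pathway. DFR, dihydroflavonol reductase, lies on the branch to anthocyanins and proanthocyanidins. UGT78D1 transfers rhamnose to the 3-hydroxyl of flavonols, and UGT78D2 transfers glucose to the same position of flavonols and anthocyanidins.

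Values were MAS5 signals, an Affymetrix summary of brightness per probe set with an arbitrary linear unit, and the authors' scaling gave all arrays the same trimmed mean. Array medians were 36.7 to 39.0 in shoots and 44.3 to 47.4 in roots, and replicate arrays correlated across probe sets at a Pearson's r of 0.982 to 0.995 on the log2 scale. The labelled tissues were borne out by their markers. The summed signal of 5 photosynthesis probe sets was 14297 to 27886 in shoots and 265 to 545 in roots, and that of 8 root probe sets was 2920 to 4314 in roots and 39.6 to 113 in shoots. UGT78D2 lay above the array median on 28 arrays, CHIL on 26, UGT78D1 on 21, AT2G22590 on 9 and DFR on 7, and all 5 passed the filter of 2 arrays. Changes below are differences of log2(signal + 9.58) with their standard error (SE) from 1 limma model over all arrays. Because 9.58 is added, changes of weak signals are understated. A difference was called when its Benjamini-Hochberg adjusted p over 14806 probe sets was under 0.05. In each comparison between times or tissues, n was 2 arrays against 2. Nothing in the labels says that replicate arrays stem from separate cultures, so the error behind each p may be technical only.

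In roots, CHIL, UGT78D1, UGT78D2 and AT2G22590 had risen by the 1 h label, fell back by 6 h and were higher again at 12 h, while DFR did not pass the test at any time. Over 5 genes and 6 later times, 16 of 30 root comparisons with 0.25 h were called, 15 higher and 1 lower. Over all probe sets 16.1% of such root comparisons were called, 8.36% as higher and 7.79% as lower. Because the 5 genes were chosen with earlier results of these data known, an excess over such shares is no independent evidence. Comparisons of a gene in a tissue also share the 0.25 h arrays, so they are not independent of each other. By time, 3 of the 5 genes were higher at 0.5 h (9.74% of probe sets called either way), 4 at 1 h (12.6%), 4 at 3 h (23.2%) and 4 at 12 h (21.3%). At 6 h 1 was lower (15.8%), and at 24 h the lowest adjusted p was 0.246 (14.3%). At 3 h the median change of the 5 genes was 2.43, and that of all probe sets was -0.00156. In shoots 15 of 30 were called, 6 higher and 9 lower, against 37.8% of all probe sets (19.3% higher and 18.5% lower). There 1 gene was higher at 0.5 h (14% of probe sets called either way), 3 were higher at 1 h (26.7%), 3 lower at 3 h (51.1%) and 4 lower at 6 h (63.2%), and at 12 h (45.8%) and 24 h (25.8%) 1 was higher and 1 lower. In the same direction as these genes, 7.72% of probe sets were called at 0.5 h, 12.7% at 1 h, 27.5% at 3 h and 31.6% at 6 h. Taking either direction, the shares called in shoots were not far from the background from 3 h on. Over all 21 pairs of times the 5 genes had 65 of 105 differences called in roots (18.4% of all probe sets) and 55 of 105 in shoots (43.9%). The moderated F test over all times called 5 of 5 genes in shoots (85.8%) and 4 of 5 in roots (53.5%), all but DFR. In every called comparison with 0.25 h both arrays of one time lay beyond both arrays of the other. The share of probe sets at large with such separation is not given here, so this only describes the calls. In bulk tissue, fewer cells of a type and less RNA per cell cannot be told apart.

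**Figure D1:**
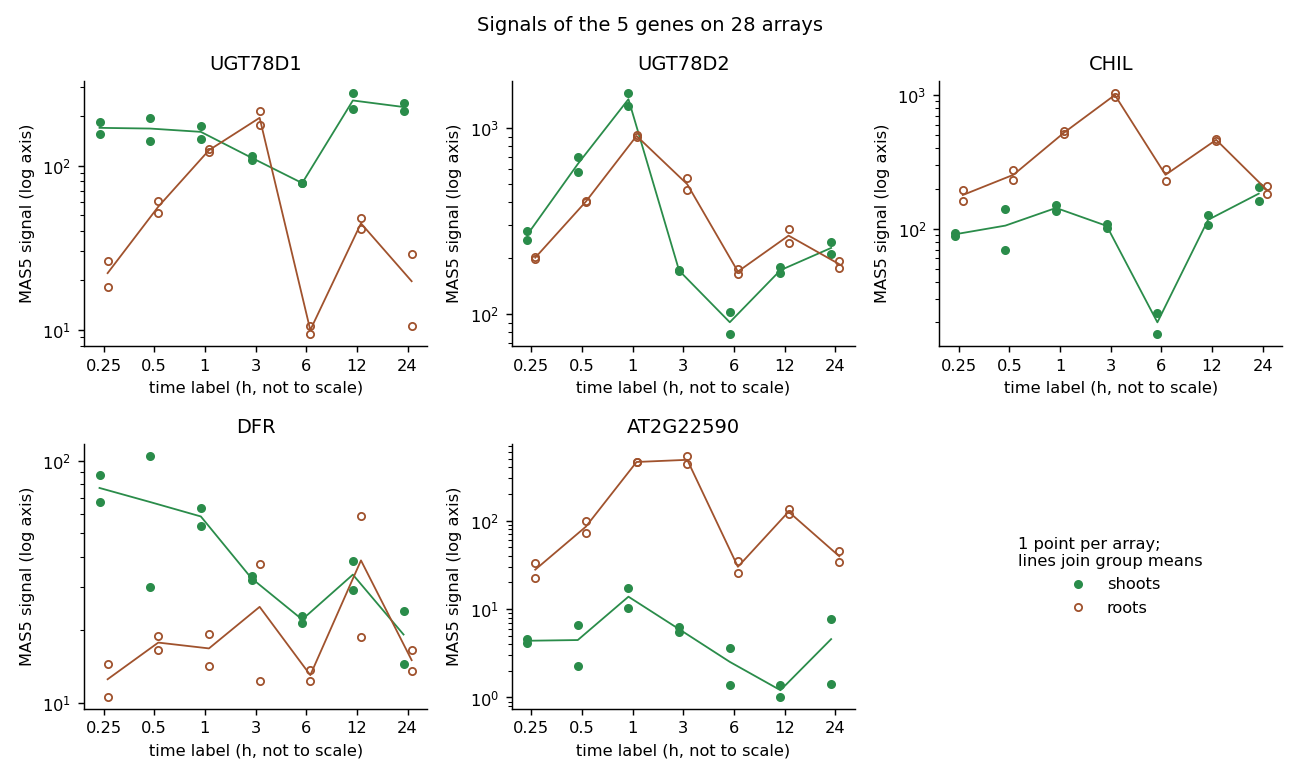
MAS5 signal of the 5 genes (log axis, arbitrary units) against the labelled time in hours, with 1 point per array, shoots and roots in separate colours and lines through the means of 2 arrays. The root lines of CHIL, UGT78D1, UGT78D2 and AT2G22590 climb to a peak at 1 h or 3 h, dip at 6 h and rise again at 12 h, and AT2G22590 stays at 17.2 or below in shoots.

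CHIL, at the entry of the pathway, rose in roots to a maximum at 3 h and had its minimum in shoots at 6 h. In roots its signals were 196 and 162 at 0.25 h, 276 and 231 at 0.5 h, 513 and 538 at 1 h, 969 and 1037 at 3 h, 279 and 228 at 6 h, 471 and 456 at 12 h, and 209 and 182 at 24 h. The 3 h arrays were the highest of all 28, and the 24 h arrays overlapped the 0.25 h arrays. Against 0.25 h, CHIL in roots rose by 1.51 ± 0.20 at 1 h (adjusted p = 2.34e-05), 2.43 ± 0.20 at 3 h (2.62e-08) and 1.33 ± 0.20 at 12 h (8.42e-05). Between 3 h and 6 h it fell by 1.95 (1.62e-06), when 4 of the 5 genes were called lower (7.33% of all probe sets called lower, 13.5% either way). Between 6 h and 12 h it rose by 0.85 (0.00777), with 4 of the 5 called higher (8.26% called higher, 15% either way). The latter call was lost without the second 6 h root array (adjusted p = 0.103).

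In shoots the CHIL signals were 93.5 and 88.4 at 0.25 h, 69.7 and 142 at 0.5 h, 136 and 150.4 at 1 h, 109 and 102 at 3 h, 16.3 and 23.6 at 6 h, 126 and 107 at 12 h, and 161 and 206 at 24 h. The 6 h arrays were far below all others, and the 24 h arrays were the highest. The fall at 6 h was -1.78 ± 0.20 (adjusted p = 2.56e-07), and the level at 24 h was higher than at 0.25 h by 0.93 ± 0.20 (0.00213). The difference at 1 h, 0.60 ± 0.20 (0.0322), lost its call without either array of 0.25 h or 1 h (adjusted p up to 0.162, without the second 1 h array). The 0.5 h difference of 0.12 (0.745) was 0.59 and called (0.0357) without the first 0.5 h array and -0.34 (0.179) without the second. Of the neighbours in the order of the shoot means, which ran 24, 1, 12, 3, 0.5, 0.25 and 6 h, only the last pair differed beyond the spread.

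DFR was low in roots and declined in shoots. Its shoot signals were 87.0 and 67.3 at 0.25 h, 30.1 and 105 at 0.5 h, 53.6 and 64.0 at 1 h, 33.2 and 32.0 at 3 h, 22.8 and 21.3 at 6 h, 29.3 and 38.3 at 12 h, and 23.8 and 14.4 at 24 h. Every array from 3 h onwards lay below both 0.25 h arrays, while the 0.5 h arrays lay on either side of them. The change against 0.25 h was -1.45 ± 0.42 at 6 h (adjusted p = 0.006), -1.61 ± 0.42 at 24 h (0.00918) and -1.03 ± 0.42 at 3 h (0.0491), and at 12 h it was -0.997 ± 0.42 (0.0609). The 3 h call was lost in most settings, at an adjusted p of up to 0.19 (without the first 0.25 h array). The 24 h call was lost without that array (0.0576) and without the second 24 h array (0.0884), and a 12 h call was made without either array of 0.5 h (up to 0.0173). In roots the DFR signals ran from 10.6 to 58.8, and the moderated F test over all times did not call it (adjusted p = 0.341). Single arrays stood out there, with 12.3 and 37.5 at 3 h and 18.6 and 58.8 at 12 h. Without the first 12 h root array the difference of 0.998 from 0.25 h (0.102) became 1.64 and was called (0.0171).

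UGT78D1, the flavonol rhamnosyltransferase, rose in roots through 3 h and had its lowest mean at 6 h in both tissues. In roots its signals were 26.1 and 18.1 at 0.25 h, 60.8 and 51.5 at 0.5 h, 121 and 127 at 1 h, 176 and 215 at 3 h, 9.41 and 10.5 at 6 h, 48.0 and 40.9 at 12 h, and 29.0 and 10.5 at 24 h. Signals climbed through 3 h without overlap between successive times and were at their lowest at 6 h. The rise from 0.25 h was 1.06 ± 0.21 at 0.5 h (adjusted p = 0.00259), 2.09 ± 0.21 at 1 h (5.04e-07) and 2.70 ± 0.21 at 3 h (7.56e-09). The fall from 3 h to 6 h was -3.39, and the rise from 6 h to 12 h was 1.47 (0.000113). Relative to 0.25 h, the values of -0.69 (0.031) at 6 h and 0.78 (0.0122) at 12 h lost their calls when an array was left out. At 6 h this held for the first 0.25 h array (adjusted p = 0.237) and for either 6 h array (0.147 and 0.111), and at 12 h for the second 0.25 h array (0.124) and the first 12 h array (0.0907). The 0.5 h value became 0.88 (0.0524) without the second 0.25 h array. The fall from 12 h to 24 h was -0.95 (0.00206), and it became -0.48 and was no longer called without the second 24 h array. In that step 4 of the 5 genes fell (16.8% of all probe sets called lower, 29.6% either way).

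In shoots the UGT78D1 signals were 156 and 183 at 0.25 h, 142 and 194 at 0.5 h, 175 and 146 at 1 h, 108 and 115 at 3 h, 77.8 and 78.7 at 6 h, 276 and 222 at 12 h, and 241 and 214 at 24 h. The first 3 times overlapped, the 6 h arrays were lowest, and the 12 h and 24 h arrays lay above all earlier ones. The fall at 6 h was -1.03 ± 0.21 (adjusted p = 0.000268) and the rise from 6 h to 12 h was 1.55. That rise was shared by 3 of the 5 genes (25.7% of all probe sets called higher, 50.9% either way). The values of -0.56 (0.0316) at 3 h and 0.53 (0.0481) at 12 h against 0.25 h were fragile. The 3 h call was lost without the second 0.25 h array (0.171) or either 3 h array (0.131 and 0.0739), and the 12 h call in most settings (up to 0.282, without the first 12 h array).

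UGT78D2, the flavonoid glucosyltransferase, had a sharp maximum at 1 h in both tissues. Its shoot signals were 251 and 281 at 0.25 h, 580.0 and 701 at 0.5 h, 1317 and 1541 at 1 h, 173 and 169.6 at 3 h, 103 and 78.1 at 6 h, 166 and 178 at 12 h, and 211 and 243 at 24 h. The 1 h arrays were the highest of all 28, and every array from 3 h to 24 h lay below both 0.25 h arrays. The rise was 1.23 ± 0.12 at 0.5 h (adjusted p = 8.95e-07) and 2.38 ± 0.12 at 1 h (4.87e-12). From 1 h to 3 h the level fell by 2.99 (3.99e-14), when 2 of the 5 genes were called lower (22.6% of all probe sets called lower, 45.1% either way). At 3 h, 6 h and 12 h the change against 0.25 h was -0.61 (0.000245), -1.47 (9.05e-10) and -0.60 (0.000323). The order of the shoot means was 1, 0.5, 0.25, 24, 12, 3 and 6 h, in which 0.25 h and 24 h (0.185) and 12 h and 3 h (0.973) did not differ beyond the spread.

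In roots the UGT78D2 signals were 204 and 198 at 0.25 h, 405 and 400.3 at 0.5 h, 898 and 915 at 1 h, 462 and 536 at 3 h, 175 and 163 at 6 h, 288 and 241 at 12 h, and 193 and 178 at 24 h. The 3 h arrays were still above every array of 0.25 h and 0.5 h, unlike in shoots. The rise was 0.97 ± 0.12 at 0.5 h (adjusted p = 2.46e-05), 2.12 ± 0.12 at 1 h (9.58e-11) and 1.27 ± 0.12 at 3 h (6.95e-08). At 12 h the difference was 0.37 ± 0.12 (0.0312), a call that was lost without the first 12 h array (0.268) or either 0.25 h array (0.104 and 0.12).

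AT2G22590 was bright in roots at 1 h and 3 h and was near the bottom of the scale in shoots. Its root signals were 33.6 and 22.2 at 0.25 h, 98.3 and 72.4 at 0.5 h, 461 and 458 at 1 h, 432 and 540.0 at 3 h, 34.7 and 25.3 at 6 h, 134 and 118 at 12 h, and 45.1 and 33.9 at 24 h. The 1 h and 3 h arrays overlapped and stood above all others, followed by those of 12 h. The rise was 3.66 ± 0.22 at 1 h (adjusted p = 1.5e-10), 3.74 ± 0.22 at 3 h (4.11e-11) and 1.87 ± 0.22 at 12 h (1.56e-06), the largest changes among the 5 genes at these times in roots. Between them, at 6 h, it differed from 0.25 h by 0.09 (0.836) after a fall of -3.65 from 3 h. The value at 0.5 h, 1.35 ± 0.22 (0.000383), lost its call with no pseudocount (0.114). In shoots its signals ran from 1.02 to 17.2, with the highest values, 17.2 and 10.4, at 1 h. All but these 2 shoot values lay below the added constant. The 1 h difference from 0.25 h, 0.73 ± 0.22 (0.0158), lost its call without the first 1 h array (0.16) or the first 0.25 h array (0.0666), and with the pseudocount at the median signal (0.27, 0.0816).

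**Figure D2:**
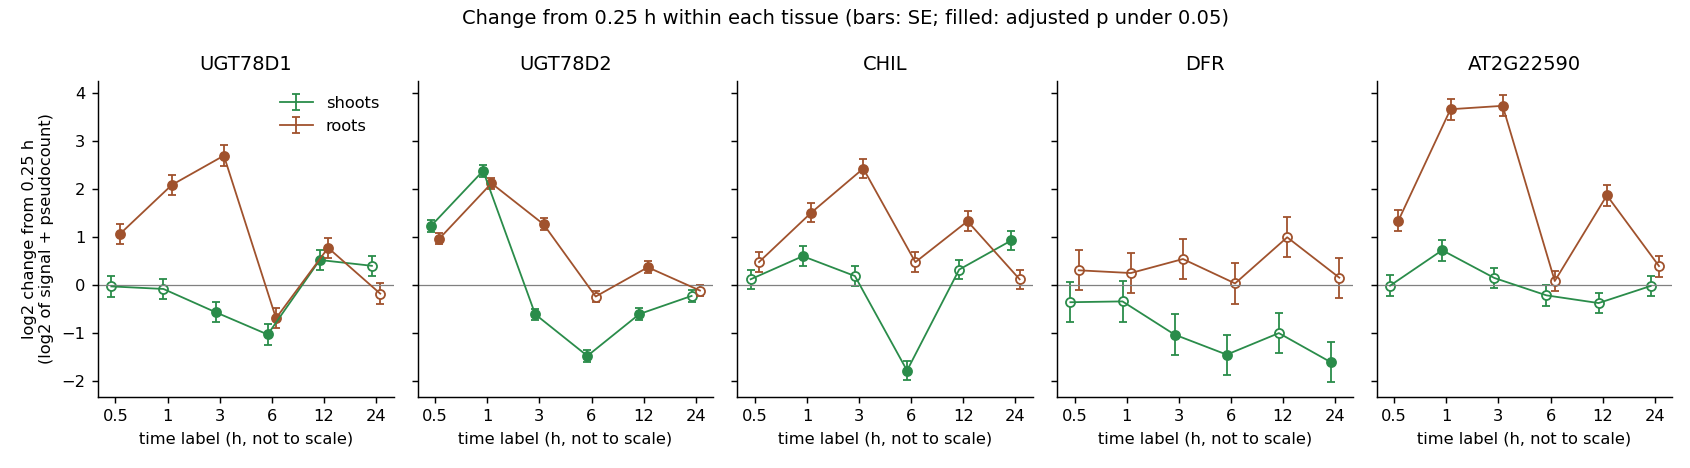
Change of each gene against 0.25 h in the same tissue, in log2(signal + 9.58), at each later time. Bars show the SE from limma, filled points were called at an adjusted p under 0.05, and the 0 line marks no change. In roots the values of AT2G22590 reach 3.66 at 1 h and 3.74 at 3 h, and in shoots UGT78D2 goes from 2.38 at 1 h to -1.47 at 6 h.

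The question of whether shoots and roots changed alike was put to the difference between the changes from 0.25 h in the tissues. Of 30 such differences, 17 were called, all of them lower in shoots than in roots, against 24% called and 11.9% called lower over all probe sets. The choice of the genes with earlier results known limits this comparison too. All differences of a gene share its 0.25 h arrays of both tissues, so they are not independent and can shift together. By time, 2 of 5 were called at 0.5 h (6.12% of all probe sets either way), 3 at 1 h (14.2%), 5 at 3 h (36.1%), 3 at 6 h (48.7%) and 4 at 12 h (26.5%). Called lower were 2.74%, 7.03%, 18.8%, 23.9% and 13.2% of all probe sets at these times in order. The differences at 3 h were -3.26 for UGT78D1, -1.87 for UGT78D2, -2.24 for CHIL, -1.57 for DFR and -3.58 for AT2G22590. For the early rise of UGT78D2 the difference was 0.26 at 0.5 h (95% interval -0.091 to 0.619, adjusted p = 0.401) and 0.26 at 1 h (-0.095 to 0.614, 0.357), neither of which was called. At 24 h the adjusted p of the 5 genes was 0.0611 (DFR, -1.76) or higher, so none was called, against 12.4% of all probe sets.

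Of the 17 calls, 9 held in every alternative setting and omission of an array. DFR lost its calls at 3 h and 6 h in most of them (adjusted p up to 0.222 and 0.12). Its 3 h difference was -1.02 without the second 3 h root array, and its 12 h difference of -1.99 was -1.36 (0.0983) without the second 12 h root array. Of UGT78D1, the 0.5 h call was lost without the first 0.5 h shoot array (0.163) and 4 other arrays. CHIL lost the 1 h call without any of 7 arrays (up to 0.14, without the second 0.25 h root array) and the 12 h call without the latter (0.0595) or the second 12 h shoot array (0.0588). AT2G22590 lost the 0.5 h call without the first 0.5 h array of shoots (0.0646) or roots (0.0637) or the second 0.25 h root array (0.058), and with no pseudocount both that call (0.255) and the 1 h call (0.0666).

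**Figure D3:**
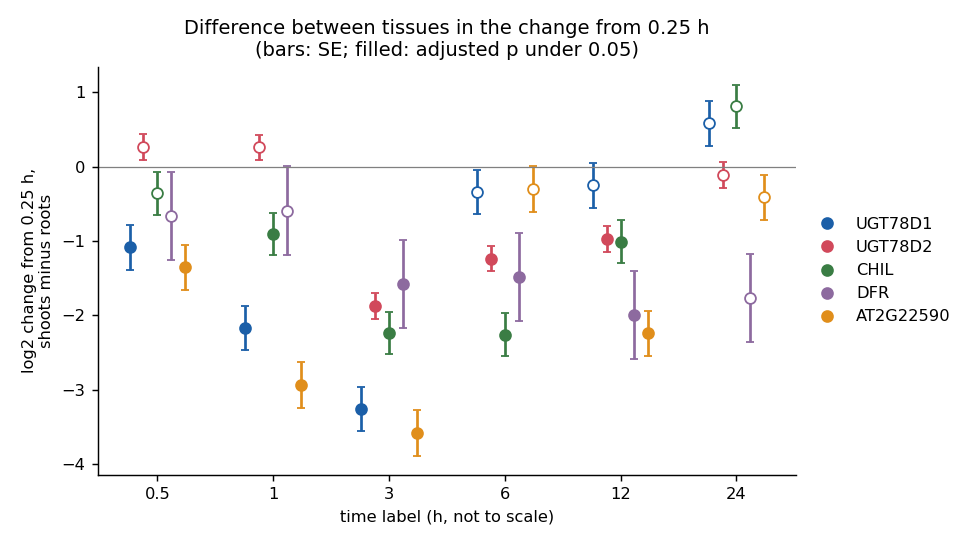
Change from 0.25 h in shoots minus that in roots for each gene at each later time, in log2(signal + 9.58). Bars show the SE from limma, and filled points were called at an adjusted p under 0.05. All filled points lie below 0, and at 3 h they reach -3.26 for UGT78D1 and -3.58 for AT2G22590.

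The levels themselves were compared between tissues at each time, one gene at a time. Of 35 comparisons, 29 were called, 12 higher and 17 lower in shoots, against 77% of all probe sets (27.6% higher and 49.5% lower; 78.3%, 79.3%, 80%, 76%, 73.7%, 75.6% and 76.4% called at the 7 times in order). Averaged over all times each of the 5 genes was called, as were 91.3% of all probe sets. The difference of UGT78D2, -0.14, turned to 0.0205 and was not called when arrays were centred on their median. AT2G22590 and CHIL were lower in shoots. AT2G22590 was lower by -1.41 at 0.25 h to -4.99 at 3 h, and CHIL by -0.90 at 0.25 h to -3.16 at 6 h, with -0.09 (adjusted p = 0.68) at 24 h. The CHIL value at 0.5 h, -1.26, was -0.79 without the first 0.5 h shoot array. The AT2G22590 differences depend on the constant added: at 12 h the value was -3.65, and -6.72 with no pseudocount.

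UGT78D1 and UGT78D2 changed places between the tissues over time. UGT78D1 was higher in shoots by 2.51 at 0.25 h, differed by 0.34 at 1 h (adjusted p = 0.142), was lower in shoots at 3 h by -0.75 (0.00312) and was again higher by 2.17 at 6 h and 3.09 at 24 h. The 1 h difference was called when arrays were centred on their median (0.54, 0.0265). UGT78D2 was higher in shoots by 0.39, 0.65 and 0.65 at the first 3 times, lower by -1.49 (2.26e-10), -0.85 and -0.59 at 3, 6 and 12 h, and higher by 0.27 (0.0439) at 24 h. With quantile normalization between all arrays the 1 h difference was 0.23 and was not called (0.0755), and the 24 h call was lost without the second 24 h shoot array (0.18, 0.285) or either 24 h root array. The 0.25 h call was lost without the second 0.25 h shoot array (0.0633). DFR was higher in shoots by 1.97 at 0.25 h, 1.31 at 0.5 h and 1.38 at 1 h, and did not differ beyond the spread from 3 h on. Its 0.5 h value was 0.54 (0.222) without the second 0.5 h shoot array and 2.07 without the first. Centring the arrays moved the median of all genes in these comparisons by 0.0957 (at 6 h) to 0.196 (at 1 h).

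The shapes of the courses were compared by the correlation of mean log2 values, given as a description because times share arrays, scale and tissue. Over the 7 root times AT2G22590 correlated with UGT78D1 at a Pearson's r of 0.961, with CHIL at 0.920 and with UGT78D2 at 0.904. Over the 7 shoot times UGT78D1 correlated with CHIL at 0.806 and with UGT78D2 at 0.313. For each gene the probe sets of other genes with the most similar course were then taken from 7909 that match 1 gene. Over all 14 groups these were MSRB6, a methionine sulfoxide reductase (0.925), AT2G22650 and AT3G16010 (0.837 each) for UGT78D1. For UGT78D2 they were the bHLH34 gene of a basic helix-loop-helix protein (0.881), AT5G37550 (0.853) and AT3G52740 (0.851). For CHIL they were AT1G71900 (0.928), AT1G30130 (0.905) and AT1G06550 (0.897), and for DFR they were AT3G60290 (0.904), AT4G09640 (0.901) and AT4G10030 (0.899). AT2G22590 was most like LPR1, Low Phosphate Root1 (0.938), AT4G38410 (0.928) and AT1G67570 (0.906). Over the roots alone, AT2G22590 was most like LD, luminidependens (0.993), AT1G06000 (0.973) and UGT84A1, a glucosyltransferase of hydroxycinnamic acids (0.970). The closest over the roots were AT5G41190 for UGT78D1 (0.996), AT2G41040 for UGT78D2 (0.988), AT1G45230 for CHIL (0.995) and AT3G26380 for DFR (0.977). The closest over the shoots were AT5G20580 for UGT78D1 (0.994), AT3G30460 for UGT78D2 (0.992), AT5G12150 for CHIL (0.976), AT3G62280 for DFR (0.989) and UGT72E3 for AT2G22590 (0.988). With 7 points and 7909 probe sets to choose from, an r of 0.976 or higher was found for each of the 5 genes in each tissue.

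Beside the 5 genes, 8 others of the flavonoid and UV-B lists could be named on the array. These lists were also chosen with earlier results of these data known. Of 12 genes listed for flavonoid synthesis 3 were named and 2 kept, and of 12 listed for glycosylation and acylation 8 were named and 5 kept. Of 13 listed for UV-B perception 2 were named and 1 kept. The lists of general phenylpropanoid enzymes (8 genes), transporters (5) and transcriptional regulators (18) had none that could be named, and those genes were not analysed here. The 5 kept genes of the glycosylation list were UGT78D1, UGT78D2 and AT2G22590, described above, with AT1G06000 and UF3GT. In roots 4 of the 5, all but UF3GT, rose at 0.5 h (5.61% of all probe sets called higher), 1 h (6.29%) and 3 h (11.9%), with a median change at 1 h of 2.09, against -0.0057 over all probe sets. In shoots UGT78D2, AT2G22590 and AT1G06000 rose at 1 h (12.7% of all probe sets called higher; list median 0.73, against -0.0213). At 6 h UGT78D1, UGT78D2 and UF3GT fell in shoots (31.6% called lower and 63.2% either way; list median -0.82, against -0.0207).

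The locus AT1G06000, itself on the glycosylation list, had a course in roots like those of UGT78D1, UGT78D2 and AT2G22590. Its root signals were 199.6 and 204 at 0.25 h, 334 and 349 at 0.5 h, 789.8 and 757 at 1 h, 604 and 701 at 3 h, 198 and 179.9 at 6 h, 308 and 270.0 at 12 h, and 179.8 and 195 at 24 h. The 1 h arrays were highest, and those of 6 h and 24 h were back at or below the 0.25 h arrays. It rose by 1.89 at 1 h (adjusted p = 3.27e-06) and 1.64 at 3 h (1.25e-05), and its 0.5 h call in roots (0.73, 0.0352) was lost without any of the 4 arrays compared (up to 0.176). In shoots it rose by 1.03 ± 0.21 at 1 h (0.00122) and by 0.75 at 12 h (0.00711), and the change at 3 h was lower than in roots by -1.68 (0.000242).

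HYH, the transcription factor closely related to HY5, had its highest mean signal at 1 h in both tissues. Its shoot signals were 221 and 231 at 0.25 h, 461 and 466 at 0.5 h, 543 and 512 at 1 h, 172 and 117 at 3 h, 75.6 and 60.9 at 6 h, 64.9 and 62.8 at 12 h, and 188 and 226 at 24 h. The arrays of 6 h and 12 h overlapped and were the lowest, and those of 24 h were near those of 0.25 h. The changes against 0.25 h were 1.19 at 1 h, -1.60 at 6 h and -1.68 at 12 h in shoots and 1.52 at 1 h in roots. UF3GT (AT5G54060), a flavonoid glycosyltransferase, was called in 2 comparisons with 0.25 h, both lower in shoots, by -0.82 at 6 h (0.0234) and -0.86 at 24 h (0.0418), and both calls were lost without an array. At 6 h these were the first arrays of 0.25 h (0.177) and 6 h (0.183), and at 24 h the first array of 0.25 h (0.237) and the second of 24 h (-0.43, 0.425). UGT78D3, which lies next but 1 to UGT78D2 in the genome, did not pass the filter. Its root signals were 0.69 and 0.395 at 0.25 h, 6.62 and 9.14 at 3 h and at most 1.52 at the other times. In a fit with no filter the limma 3 h change was called (0.78 ± 0.16, adjusted p = 0.00172). The share of probe sets called in that fit is not given here. All UGT78D3 signals lay below the added constant, so the size of this change depends on that constant.

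**Figure D4:**
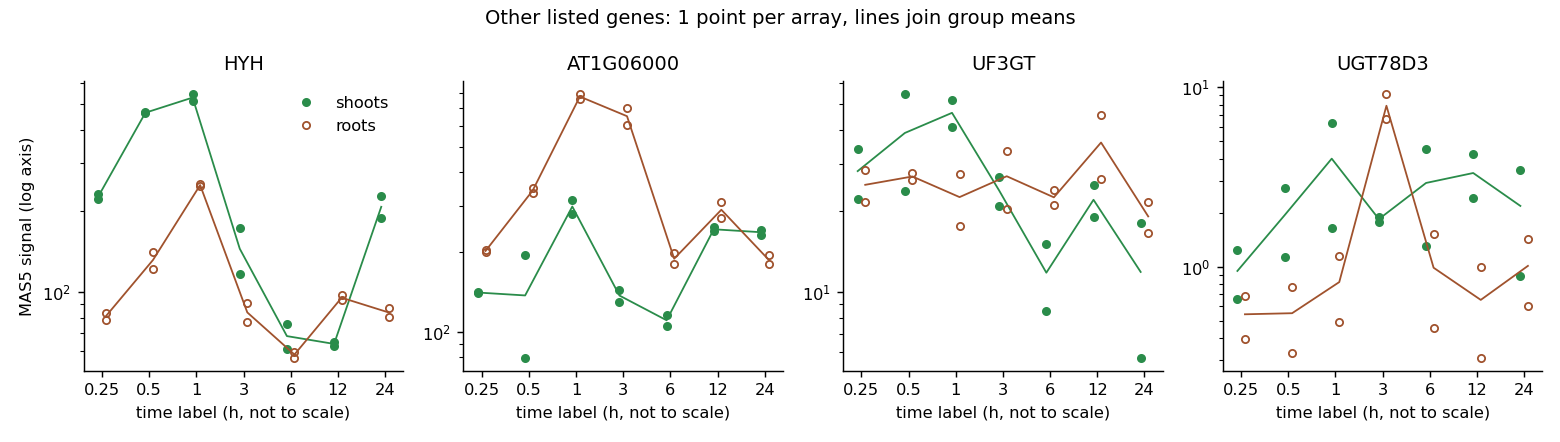
MAS5 signal (log axis, arbitrary units) of HYH, AT1G06000, UF3GT and UGT78D3 against the labelled time in hours, with 1 point per array, shoots and roots in separate colours and lines through the means of 2 arrays. AT1G06000 and HYH are highest at 1 h in both tissues, where AT1G06000 reached 789.8 and 757 in roots and HYH 543 and 512 in shoots.

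In 3 groups the replicate arrays were far apart for DFR. The second array exceeded the first by 1.53 at 0.5 h in shoots, 1.104 at 3 h in roots and 1.28 at 12 h in roots, on the log2(signal + 9.58) scale. Over all kept probe sets the median absolute gap was 0.118, and 0.412%, 0.0135% and 0.29% of probe sets had a larger gap in those groups. AT4G14090, a listed glycosylation locus, moved the same way there, by 1.48, 1.15 and 0.94, and UF3GT by 0.95, 0.53 and 0.62. AT4G14090 did not pass the filter, was named after its values were seen, and had wide gaps in other groups too. Over the 14 groups the median absolute gap was 0.605 for AT4G14090, 0.361 for UF3GT and 0.265 for DFR. AT1G06000 differed by 1.19 at 0.5 h in shoots (0.743% of probe sets with a larger gap) and by 0.21 and -0.18 in the root groups. CHIL differed by 0.93 at 0.5 h in shoots but by 0.10 and -0.05 in the root groups. A wide gap was also seen elsewhere, for UGT78D1 at 24 h in roots (-0.94, 0.128% of probe sets with a larger gap). UGT78D2 differed by 0.27 at 0.5 h in shoots and by 0.21 and -0.25 at 3 h and 12 h in roots. Its median gap was 0.137 over the 14 groups. The sums of shoot markers were 431 and 437 at 3 h and 265 and 439 at 12 h in these root arrays, and the sums of root markers were 113 and 81.0 at 0.5 h in shoots. The part of other tissue in these gaps was not tested.

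**Figure D5:**
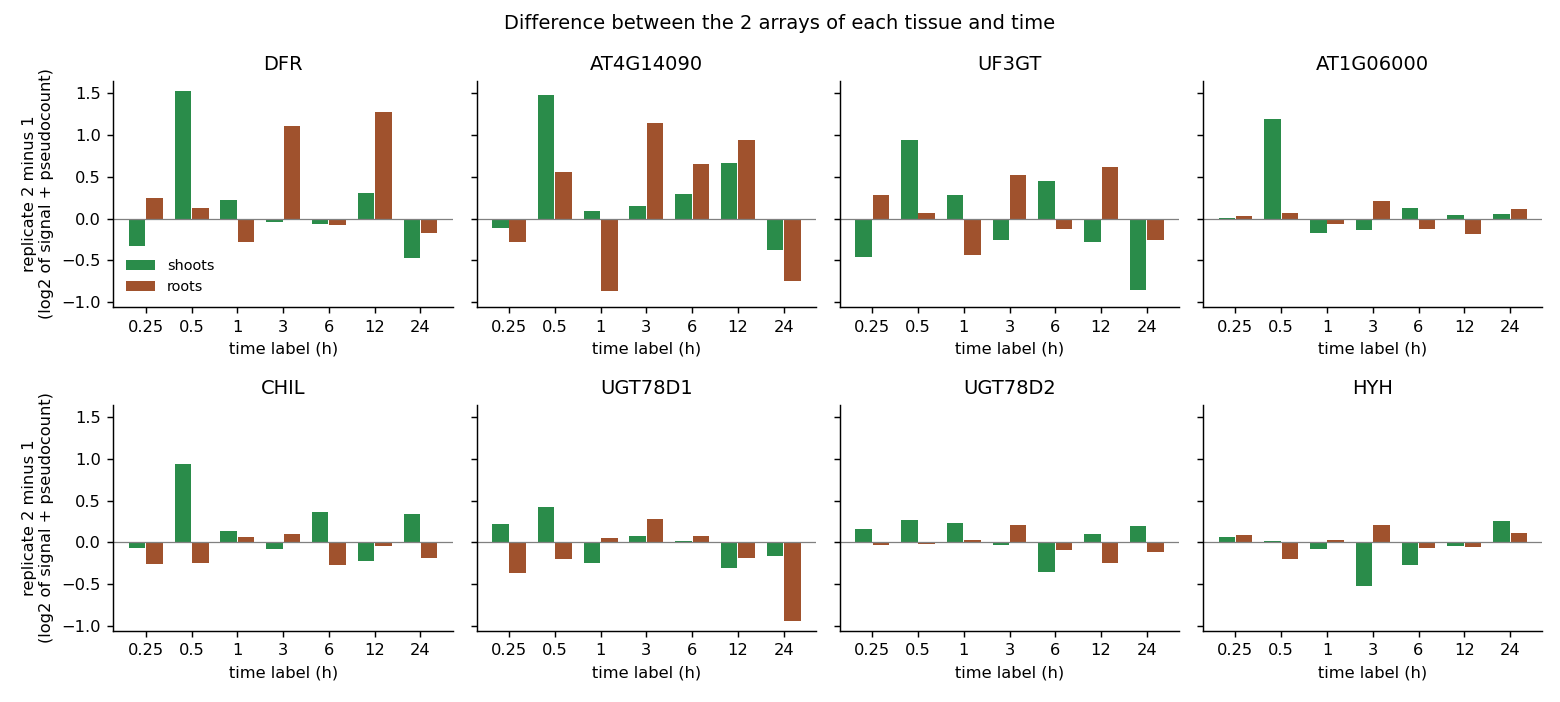
Signal of replicate 2 minus replicate 1 in each tissue and time for DFR, AT4G14090, UF3GT, AT1G06000, CHIL, UGT78D1, UGT78D2 and HYH, in log2(signal + 9.58), with bars for shoots and roots. Values above 0 are higher on the second array. DFR stands at 1.53 at 0.5 h in shoots and at 1.104 and 1.28 at 3 h and 12 h in roots.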

How the data were processed

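RNA of shoots and roots was hybridised to 28 one-colour ATH1 arrays. The deposited values were linear signal intensities, which the authors obtained with MAS5 per the submitters' processing notes. The sources used here do not give its version, settings or detection calls. The mean deposited intensity, trimmed by 2% at each end, was 99.2 to 99.4 on every array, so arrays share 1 scale.

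From these, 64 control probe sets of 22810 were dropped. Signals were taken as log2(signal + 9.58), the constant being their 25th percentile, and 14806 of 22746 probe sets exceeded the array median on at least 2 arrays and were kept. Probe sets were named from the platform annotation supplied: 13513 matched 1 gene, 503 several and 8730 none. All 28 arrays entered a limma 3.58.1 model (R 4.3.3, trend and robust options) with 14 group means, 14 residual and 7.24 prior degrees of freedom. Contrasts were each time against 0.25 h, pairs of times, shoots against roots, and the difference between tissues in the change from 0.25 h. P-values were 2-sided and Benjamini-Hochberg adjusted within each contrast over all kept probe sets. On data simulated for shoots at 3 h against 0.25 h, 100 of 14806 probe sets were changed. Of these, limma recovered 89% at a change of 1 and 100% at a change of 2 on the log2 scale. At each size 7 other probe sets were called falsely. In the real comparison 51.1% of probe sets were called, so the simulated rates need not hold for these data.

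The 5 genes and the lists were chosen with earlier results of these data known. Beside the 5, the genes named are those of the pathway lists with a probe set of their own and the 3 probe sets most correlated with each gene over all groups and within each tissue. AT4G14090 and UGT78D3, which did not pass the filter, were named after their values were seen. Replicate numbers were not taken to pair samples in the main model. Over the 7 times, deviations of shoots and roots with the same number correlated at -0.069 to 0.109. Tissues of the same plants need not share such deviations, so these values cannot exclude a pairing. Alternatives were no pseudocount or the median signal as pseudocount, quantile normalization between all arrays or within tissues, centring, no filter or a 75th percentile filter, a fit for each tissue alone, eBayes without its trend and robust options, replicate blocks, and leaving out each array.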

Additional observations from a re-analysis of the deposited data

Results flagged for a closer look

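The changes from 0.25 h that differed between shoots and roots by the test of the difference itself are given here as shoots minus roots, in log2(signal + 9.58) ± SE with limma's adjusted p. In all of them both arrays of each group entered, and 7 of the 17 calls were lost when an array was left out, as given above. For the rhamnosyltransferase UGT78D1 they were -1.09 ± 0.30 at 0.5 h (adjusted p = 0.0357), -2.16 ± 0.30 at 1 h (4.66e-05) and -3.26 ± 0.30 at 3 h (6.54e-08). For the glucosyltransferase UGT78D2 they were -1.87 ± 0.17 at 3 h (3.39e-08), -1.24 ± 0.17 at 6 h (4.57e-06) and -0.97 ± 0.17 at 12 h (0.000187). CHIL had -0.90 ± 0.29 at 1 h (0.0396), -2.24 ± 0.29 at 3 h (5.36e-06), -2.26 ± 0.29 at 6 h (2.74e-06) and -1.01 ± 0.29 at 12 h (0.0126). DFR had -1.57 ± 0.59 at 3 h (0.0467), -1.48 ± 0.59 at 6 h (0.0471) and -1.99 ± 0.59 at 12 h (0.0182). AT2G22590 had -1.35 ± 0.31 at 0.5 h (0.011), -2.94 ± 0.31 at 1 h (1.06e-06), -3.58 ± 0.31 at 3 h (1.78e-08) and -2.24 ± 0.31 at 12 h (1.17e-05).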

How the results depend on the processing

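The count of 15 of 30 shoot changes called against 0.25 h was 12 to 15 under other settings and 10 to 17 when an array was left out, and that of 16 of 30 in roots was 15 to 17 and 13 to 19. The 17 differences between tissues in these changes were 12 to 18 under other settings and 11 to 20 without an array, the lowest count being without the second 0.25 h root array. Of 35 comparisons of level between shoots and roots, 29 were called, with 26 to 30 and 28 to 29. Among all 105 pairs of times, 55 were called in shoots (48 to 56 and 46 to 58) and 65 in roots (61 to 69 and 62 to 68). The moderated F test called 5 genes in shoots (4 to 5) and 4 in roots (4 in every setting). The filter at the 75th percentile left out DFR, so its counts are of 4 genes (12 of 24 in shoots, 16 of 24 in roots). Of 31 calls against 0.25 h, 20 held in every setting and omission, as did 21 of 30 between successive times and 29 of the 34 tissue calls made when the 5 averages over all times are counted with the single times. UGT78D2 averaged over all times was lower in shoots by -0.14, and with arrays centred on their median this turned to 0.0205 (adjusted p = 0.679). With the median signal as pseudocount, changes of weak signals shrank, such as that of UGT78D1 in roots at 3 h from 2.70 to 1.89 and that of CHIL in shoots at 6 h from -1.78 to -1.11. With the replicate number as a block, 15 changes from 0.25 h in shoots and 16 in roots were called. So were 17 differences between tissues in these changes and 29 differences of level. Of 112 called results, 0 lost their call and 0 were gained. The number of arrays limits every value, and signals of AT2G22590 in shoots and of DFR in roots were too weak for a ratio that does not depend on the constant added.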
